A study of Mus musculus with 25 samples.

Results

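The CYP2 family of cytochrome P450 genes was described in mouse liver RNA sequencing. Members were all protein-coding genes with a symbol of Cyp2, a subfamily letter and a number, which gave 47 of the 30524 genes listed. They fall into subfamilies a (4 genes), b (4), c (15), d (9), j (8) and e, f, g, r, s, t and u (1 each). Of these 47 genes, 45 stood in all 5 deposited tables and 36 passed the filter on low values, an FPKM (reads divided by gene length and by the library's assigned reads) of 1 or more in at least 4 libraries. Cyp2j7 and Cyp2j13 were missing from a table, and Cyp2b19, Cyp2c65, Cyp2c66, Cyp2d11, Cyp2d34, Cyp2j11, Cyp2j12, Cyp2s1 and Cyp2t4 were too low to be tested.

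Per the labels, all mice were C3H/HeJ males that were 5 weeks old at the start, and each library came from a separate mouse. Of the 5 groups, 4 received diethylnitrosamine (DEN), a nitrosamine liver carcinogen, by intraperitoneal injection at 25 mg/kg 2 times a week for 3 weeks in each of 5 cycles, and the Untreated group (n = 5) received saline. After 1 month of rest, gavage followed for 3 weeks: caffeine at 50 mg/kg 3 times a week in DEN_CAF (n = 5), sorafenib at 30 mg/kg 2 times a week in DEN_SOR (n = 4), both in DEN_CAF_SOR (n = 5), and the vehicles alone in DEN (n = 6). The vehicles were tap water and corn oil with 2% DMSO. The Untreated group is listed with the same 3-week course and 2% DMSO, at 0 mg/kg of both drugs. No group received a drug without the carcinogen, so each drug is seen here only in carcinogen-treated liver. RNA was from liver tissue, in which fewer cells of a type and less RNA per cell cannot be told apart.

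P450 enzymes sit in the membrane of the endoplasmic reticulum and use a haem iron, with electrons passed on by cytochrome P450 reductase, to put an oxygen atom into drugs, carcinogens, steroids and fatty acids. The CYP2 family is the largest P450 family of the mouse, and most of its members lie in tandem clusters of near-identical genes that are expressed in hepatocytes. Control of several kinds is known for it in rodent liver, namely position along the lobule, with many members high around the central vein, induction by foreign compounds through the nuclear receptor CAR, and sex, set by the pattern of growth hormone release. Cyp2e1 and Cyp2a5 are known for oxidising small nitrosamines, including diethylnitrosamine, to their DNA-damaging form.

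Libraries that stand apart bear on every value below. Xist, which female cells transcribe from their silenced X chromosome, had 22879, 29770 and 13370 reads in the libraries labelled Untreated 3, 4 and 5 and at most 21 reads in the other 22, and these 3 libraries had 30 to 84 reads of the Y-linked Ddx3y against 1028 and 1373 in Untreated 1 and 2. They go against the label male, and values against Untreated are given with all 5 and, for the counts, lists and members described, also without these 3. DEN 4 had the lowest level of all 25 libraries for 18 of the 36 tested CYP2 members (50%) and for 14.6% of all tested genes. Mitochondrial transcripts took 6.36% to 34.8% of reads in libraries numbered 3 and 4 and 5.65% to 9.81% in the others, and the labels do not say what the numbers stand for. Assigned reads per library ran from 14750278 to 21992613. Hepatocyte markers were high in every library (summed FPKM of 25948.5 to 88599.9 in DEN, where DEN 4 was highest, and 35847 to 50306 in Untreated), and the 3 markers of nasal or lung epithelium, other sites of CYP2 expression, reached at most 0.577 FPKM.

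The 6 upstream sequences that follow are shown because the members concerned are nearly the same in sequence and yet differed in level between libraries. They are the 150 bases before the annotated start (RefSeq, GRCm38.p6), read 5′ to 3′ on the gene's strand, and RefSeq promoters of 300 bases were matched for 38 of the 47 members. In the Cyp2c sequences, capitals mark CAAAGTCCA, a form of the direct repeat bound by HNF4A, a factor of hepatocyte identity. In Cyp2a4 and Cyp2a5, capitals mark the 3 bases that differ in the window.
Cyp2c40, chr19:39812815-39812964, minus strand: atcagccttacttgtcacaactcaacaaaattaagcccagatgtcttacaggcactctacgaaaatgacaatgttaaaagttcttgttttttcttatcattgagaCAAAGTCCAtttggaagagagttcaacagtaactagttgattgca
Cyp2c69, chr19:39886770-39886919, minus strand: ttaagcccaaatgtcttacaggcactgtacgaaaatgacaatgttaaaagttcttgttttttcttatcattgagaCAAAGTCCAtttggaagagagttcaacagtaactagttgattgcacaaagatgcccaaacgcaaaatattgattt
Cyp2c68, chr19:39741102-39741251, minus strand: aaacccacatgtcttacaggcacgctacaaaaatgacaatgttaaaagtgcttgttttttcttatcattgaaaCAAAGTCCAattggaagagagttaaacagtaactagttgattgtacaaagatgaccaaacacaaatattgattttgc
Cyp2c67, chr19:39649043-39649192, minus strand: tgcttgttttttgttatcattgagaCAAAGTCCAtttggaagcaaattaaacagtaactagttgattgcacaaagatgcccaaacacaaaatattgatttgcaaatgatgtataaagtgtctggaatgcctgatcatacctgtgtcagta
Cyp2a4, chr7:26307042-26307191, plus strand: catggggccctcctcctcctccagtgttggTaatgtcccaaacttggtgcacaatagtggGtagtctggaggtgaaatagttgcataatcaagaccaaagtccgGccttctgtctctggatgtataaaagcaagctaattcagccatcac
Cyp2a5, chr7:26835189-26835338, plus strand: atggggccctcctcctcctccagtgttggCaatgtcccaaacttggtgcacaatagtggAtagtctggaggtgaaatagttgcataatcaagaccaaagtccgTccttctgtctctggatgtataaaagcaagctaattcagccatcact

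The 300-base promoters were aligned in pairs, and bases left unpaired were not counted. Cyp2c40 and Cyp2c69 were identical at 267 of 270 paired bases (98.9%). Cyp2c40 and Cyp2c68 were identical at 251 of 266 (94.4%), and Cyp2c40 and Cyp2c67 at 205 of 220 (93.2%). The Cyp2a4 and Cyp2a5 promoters were identical at 294 of 299 paired bases (98.3%). CAAAGTCCA, searched on both strands, was in 6 of the 38 member promoters (Cyp2c40, Cyp2c65, Cyp2c67, Cyp2c68, Cyp2c69 and Cyp2c70, 15.8%) and in 0.475% of 32851 mouse promoters of the same length. TTCNNNGAA, the core of STAT5 sites, was in 2 of 38 (Cyp2j11 and Cyp2j12, 5.26%) against 8.3%, and TTGCGCAA, a C/EBP form, was in 0 of 38 against 0.183%. A match describes letters only, and the data hold no measurement of binding.

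The transcripts are similar too, which limits how well reads were assigned. In the GENCODE vM21 transcripts, 60.3% of the 50-base windows of Cyp2c40 occurred unchanged in another CYP2 gene, as did 54.3% of those of Cyp2c69, 52.8% of Cyp2c67 and 43.3% of Cyp2c68. The share was 38% for Cyp2a4, 37% for Cyp2a5, 20% for Cyp2b13, 10.8% for Cyp2b9 and 0% for Cyp2e1, Cyp2f2 and Cyp2g1. At 100 bases it was 34.4% for Cyp2c40, 35.4% for Cyp2c69 and 11.2% for Cyp2a4. Levels of close copies are uncertain, since neither read length nor the handling of reads with several matches is known here.

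CYP2 transcripts were abundant, and Cyp2e1 and the Cyp2c and Cyp2d subfamilies made up most of them. Over all members the summed FPKM was 8465 ± 948 (SD, n = 5) in Untreated and 5655 ± 2399.8 (n = 6) in DEN, from 2514 in DEN 3 to 7991. Without DEN 4 the DEN mean was 6204 ± 2224 (n = 5). The sum was 5097 (n = 5) in DEN_CAF, 5108 ± 1234 (n = 4) in DEN_SOR and 6095 ± 1775 (n = 5) in DEN_CAF_SOR. The Untreated libraries ran from 7205 (Untreated 5) to 9879, so the DEN range reached into theirs. Untreated 1 and 2 were at 9879 and 8442, and all 6 DEN libraries lay below both.

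By subfamily, the largest gap in FPKM between Untreated and DEN was in Cyp2e1, the sole member of subfamily e, followed by subfamily c. Cyp2e1 averaged 3101 ± 829.6 FPKM in Untreated and 1610.4 ± 1195 in DEN, and subfamily c summed to 2161 ± 195 and 1338 ± 909.7. Subfamily a summed to 939.9 ± 388 and 713 ± 429, a DEN mean that DEN 4 raised: it was 541 ± 93.9 without that library. The order depended on the Untreated libraries as well: subfamily a summed to 842 and 367 in Untreated 1 and 2 and to 1323, 1279 and 889 in Untreated 3 to 5, so the DEN mean lay between the first 2 and below the other 3. Subfamily b ran from 3.48 to 561 FPKM within Untreated alone and averaged 85.4 ± 46.5 in DEN. Subfamily j summed to 242 ± 13.8 and 172 ± 76.9.

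Subfamily d kept nearly the same sum, 1465 ± 364 FPKM in Untreated and 1446.9 ± 466.3 in DEN, and subfamily f (Cyp2f2) averaged 285 in Untreated and 278 ± 195 in DEN. As a share of all CYP2 FPKM, subfamily d stood at 17.1% ± 2.40 (SD, n = 5) in Untreated and 27.1% ± 4.48 (n = 6) in DEN. The highest Untreated library was at 21.3% and the lowest DEN library at 22.6%, so the 2 groups did not overlap. The lowest libraries of DEN_CAF (20.2%) and DEN_CAF_SOR (19.8%) did lie inside the Untreated range. The share of Cyp2e1 was 36.4% ± 7.77 and 25.0% ± 13.7, with overlap, and was as low as 1.55% in DEN 4, where subfamily a made up 54.0%.

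**Figure D1:**
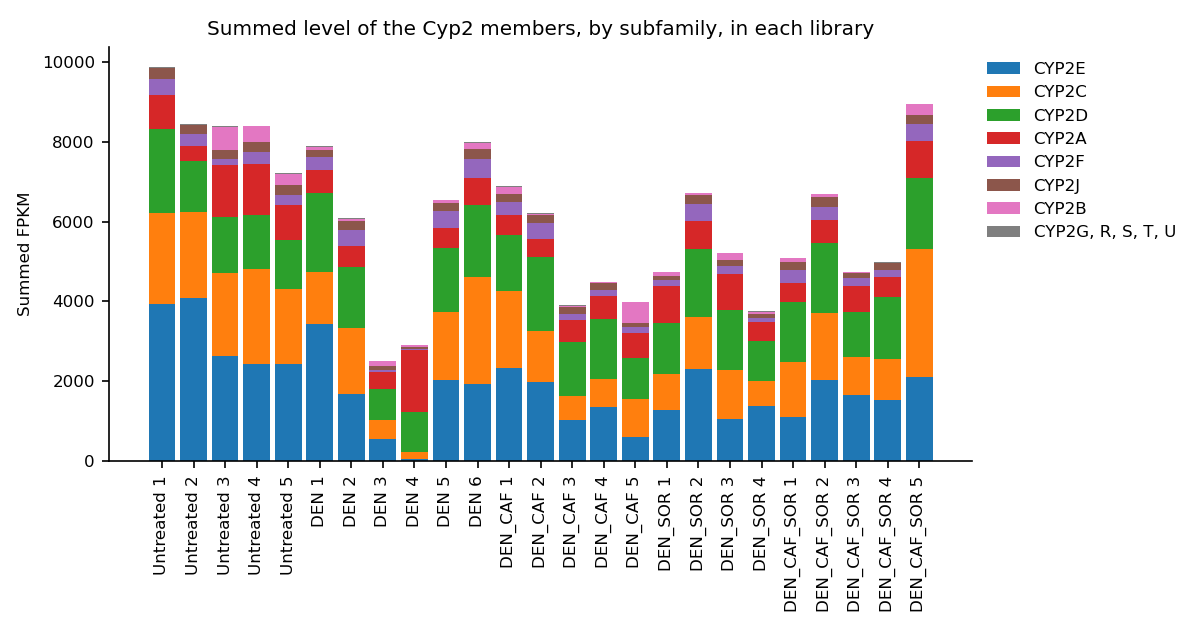
Stacked bars of the summed FPKM of each CYP2 subfamily in each of the 25 libraries, ordered by group. The total was lowest in DEN 3 (2514) and DEN 4, where Cyp2e1 was at 45.3 and subfamily a at 1573.

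DEN against Untreated asks how liver that had received the carcinogen differed from liver given saline. No CYP2 member rose and 4 fell: Cyp2c69, Cyp2c40, Cyp2g1 and Cyp2c68. With limma on log2(FPKM + 1) and Benjamini-Hochberg adjustment over 12741 genes, called genes were 2.04% of all tested genes (1% up and 1.04% down), against 4 of the 36 CYP2 members. Unadjusted p-values under 0.05 went to 15 of the 36 members, against 16.5% of all genes. The median log2 fold change was -0.61 over the members and 0.03 over all tested genes, with 9 members above 0 and 27 below. On the recovered reads edgeR called 7 members, all lower (the 4 above with Cyp2a22, Cyp2b13 and Cyp2c38). DESeq2 called 10, also all lower, adding Cyp2c37, Cyp2c39 and Cyp2d13. The share of all tested genes called by these tools is not given here, so their counts are not set against it.

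These calls depended on which Untreated libraries entered. Without Untreated 3, 4 and 5, called genes were 0.345% of all tested genes (0.165% up and 0.181% down), and the CYP2 members called were Cyp2a4 and Cyp2b9, both higher in DEN, with 0 lower. The median of the 36 members was then -0.32, that of all genes 0.12, and 6 members had an unadjusted p under 0.05 against 12.5% of all genes. That fit rests on 2 Untreated libraries. With edgeR on the same libraries 1 member was called, Cyp2b9 (adjusted p = 0.0312), and Cyp2a4 was at an adjusted p of 0.0532.

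**Figure D2:**
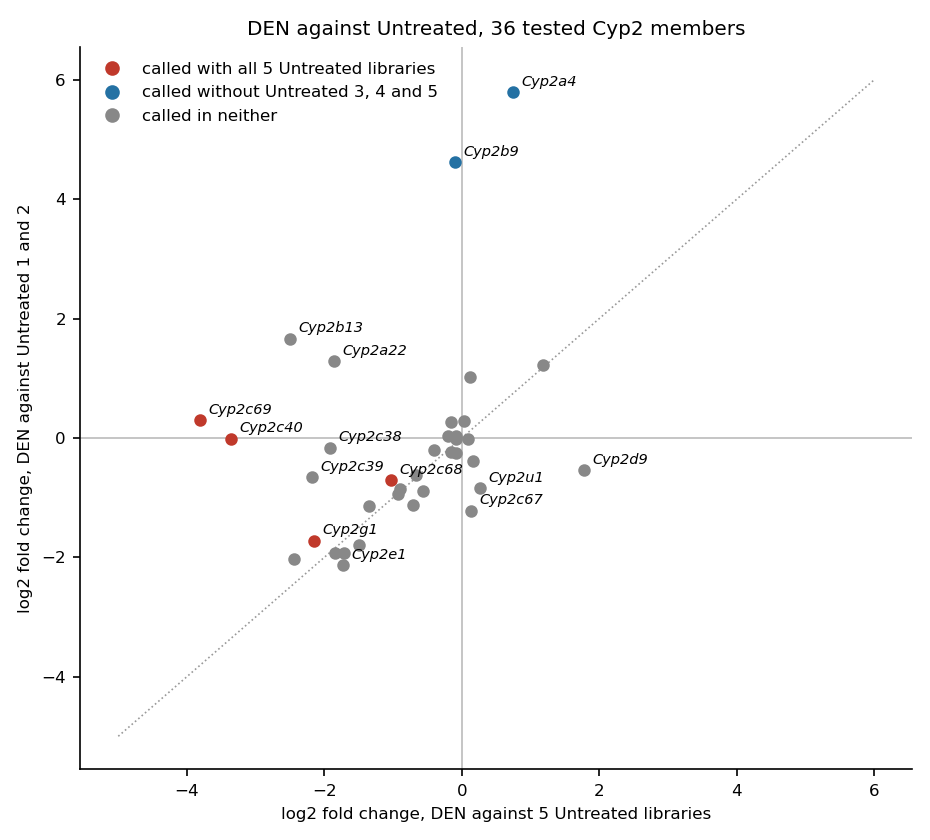
Log2 fold change of DEN against Untreated for the 36 tested CYP2 members, with all 5 Untreated libraries on the x axis and with Untreated 1 and 2 alone on the y axis. Red points were called with all 5 libraries and blue points without Untreated 3, 4 and 5. Cyp2c69 moved from -3.81 to 0.30 and Cyp2c40 from -3.36 to -0.01, while Cyp2a4 moved from 0.74 to 5.80 and Cyp2b9 from -0.10 to 4.62.

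The members known as female-biased in mouse liver differed between Untreated 1 and 2 and Untreated 3 to 5. Cyp2c40 (GRCm39 chromosome 19, 39755515 to 39801258, minus strand), an arachidonic acid hydroxylase, stood at 1.72, 1.51, 79, 136 and 179 FPKM in Untreated 1 to 5. In DEN it ran from 0.936 through a median of 1.51 to 2.7. Untreated 3, 4 and 5 were thus high and Untreated 1 and 2 lay inside the DEN range. The log2 fold change was -3.36 (SE 0.88, adjusted p = 0.0439).

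Cyp2c69 (chromosome 19, 39831258 to 39875243, minus strand), its neighbour and near copy, had 0 reads in Untreated 1 and 2 and 93.8, 84.7 and 187 FPKM in Untreated 3 to 5. In DEN it ran from 0.0594 through 0.216 to 0.476, and against all 5 Untreated libraries its log2 fold change was -3.81 (SE 0.99, adjusted p = 0.0426). All 6 DEN libraries lay below Untreated 3 to 5. Each held at least 2 reads where Untreated 1 and 2 held 0, but in 2 of the 6 the reads did not exceed 3, so these 2 are not distinguishable from 0 at this depth. With 0 counts taken as 3 per library, the DEN mean was at least 2.15-fold higher than Untreated 1 and 2. In the libraries of DEN_SOR Cyp2c69 was at 6.93, 0.672, 5.71 and 3.1 FPKM, and it reached 1 FPKM in 8 of the 25 libraries.

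Cyp2a4 (chromosome 7, 26006594 to 26014513, plus strand), a steroid hydroxylase, stood at 0.183, 0.273, 317, 604 and 387 FPKM in Untreated 1 to 5. In DEN it ran from 15.6 through a median of 40.6 to 1273, and the 1273 of DEN 4 was above every other library. All 20 carcinogen-treated libraries (15.6 to 1273) lay above Untreated 1 and 2, which had 5 and 8 reads. Against all 5 Untreated libraries the log2 fold change was 0.74 (SE 1.39, adjusted p = 0.849) and without Untreated 3, 4 and 5 it was 5.80 (SE 1.12, adjusted p = 0.0193).

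Cyp2b9 (chromosome 7, 25872836 to 25910086, plus strand), the female-predominant Cyp2b of mouse liver, was at 0.136, 0, 335, 256 and 174 FPKM in Untreated 1 to 5. In DEN it ran from 5.19 through 32.6 to 111, between the 2 sets of Untreated libraries. The log2 fold change was -0.10 (SE 1.26, adjusted p = 0.982) with all 5 and 4.62 (SE 0.93, adjusted p = 0.0277) without Untreated 3, 4 and 5. Cyp2b13 (chromosome 7, 25760922 to 25795622, plus strand), next to it, had 0 reads in Untreated 1 and 2, 199.9, 115 and 78.5 FPKM in Untreated 3 to 5, and 0.562 to 4.89 in DEN. Its DEN mean was at least 25.3-fold higher than Untreated 1 and 2, on 3 counts per library for the 0s. The fold change of Cyp2b13 passed the limma test neither with all 5 Untreated libraries (-2.50, adjusted p = 0.231) nor without the 3 (1.66, adjusted p = 0.288).

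Over the 7 members of the textbook female-biased list, 2 fell (Cyp2c40 and Cyp2c69) and the median log2 fold change was -2.18 with all 5 Untreated libraries. Without Untreated 3, 4 and 5, 2 rose (Cyp2a4 and Cyp2b9), 0 fell and the median was 0.30. Levels above both Untreated 1 and 2 in all 20 carcinogen-treated libraries were found for 5 of the 36 members, Cyp2a4, Cyp2a22, Cyp2b9, Cyp2b13 and Cyp2c69, and for 5.16% of all tested genes. For Cyp2c69 this order is against 0 reads, and 4 of the 20 libraries held at most 3 reads, while each library held more than 3 reads of the other 4 genes. Counted over the 6 DEN libraries alone, the same 5 members lay above Untreated 1 and 2. That was 13.9% of the members and 14% of all genes, so about the same share. Below Untreated 1 and 2 lay 6 members, Cyp2c37, Cyp2c54, Cyp2c68, Cyp2d40, Cyp2e1 and Cyp2g1 (16.7%, against 3.4% of all genes). Cyp2a22 was at 1.72 and 0.912 FPKM in Untreated 1 and 2, 191, 91.9 and 35 in Untreated 3 to 5 and 2.04 to 12.6 in DEN.

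Cyp2d9 (chromosome 15, 82317638 to 82341046, plus strand), a testosterone hydroxylase known as male-specific, showed the opposite order. It was at 635 and 336 FPKM in Untreated 1 and 2 and at 35.8, 23.7 and 35.2 in Untreated 3 to 5. In DEN it ran from 79.3 (DEN 3) through 503 to 583, and all 20 carcinogen-treated libraries lay above Untreated 3 to 5. The log2 fold change was 1.77 (SE 0.69, adjusted p = 0.191) with all 5 Untreated libraries and -0.54 without Untreated 3, 4 and 5, not called in either.

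**Figure D3:**
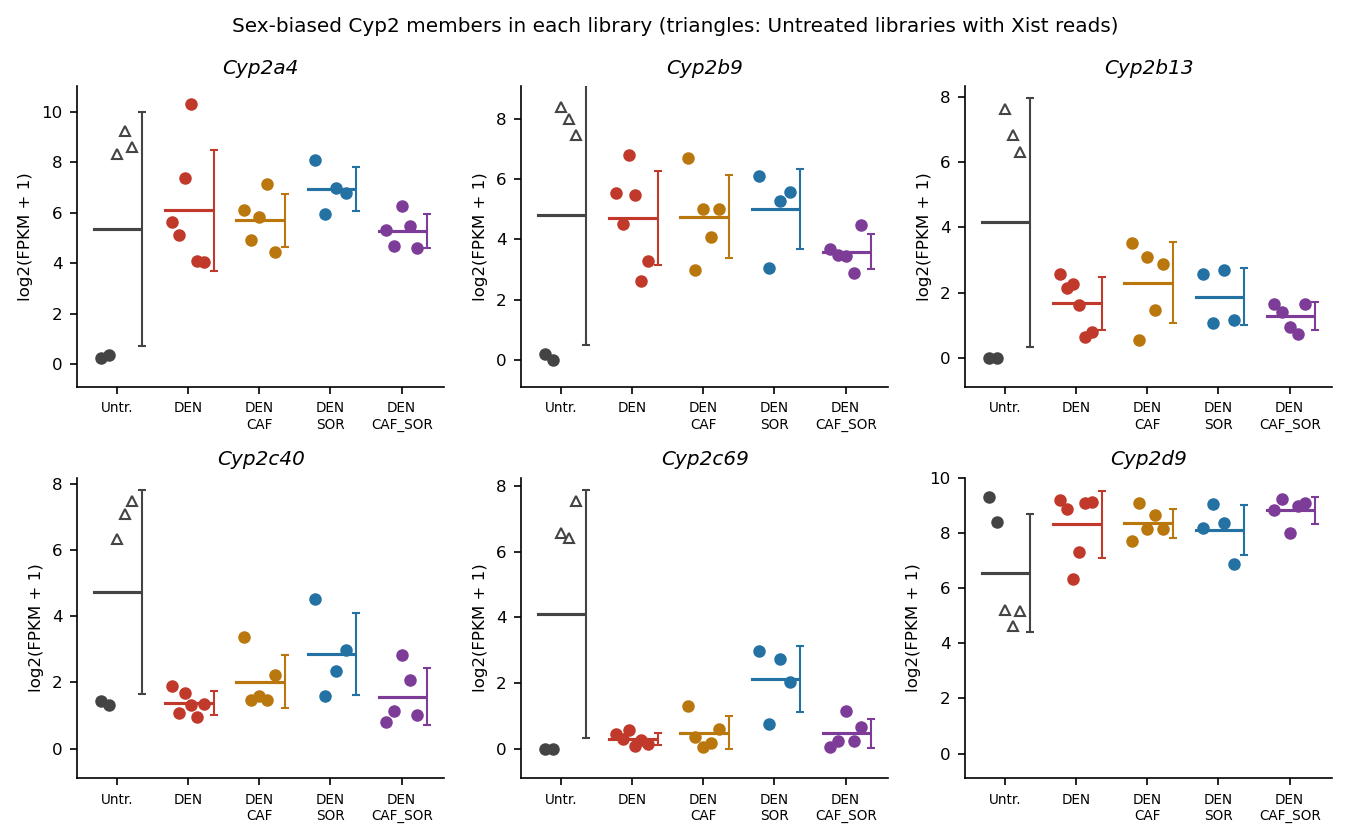
Log2(FPKM + 1) per library by group for Cyp2a4, Cyp2b9, Cyp2b13, Cyp2c40, Cyp2c69 and Cyp2d9, with triangles for the Untreated libraries that hold Xist reads, a line for the group mean and a bar for the SD. The triangles stand above the other Untreated points for all of these genes but Cyp2d9, where they stand below, and the 20 carcinogen-treated libraries lie between for Cyp2b9 and Cyp2b13.

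Apart from the female-biased list, Cyp2g1 and Cyp2c68 fell and did not turn in direction when Untreated 3, 4 and 5 were left out. Cyp2g1 (chromosome 7, 26508317 to 26520630, plus strand), best known from the olfactory mucosa, was at 10.5, 7.74, 25.8, 10.2 and 13.6 FPKM in Untreated 1 to 5. In DEN it ran from 0.189 (DEN 4) through 2.19 to 3.95, so all 6 DEN libraries lay below all 5 Untreated ones. The log2 fold change was -2.15 (SE 0.39, adjusted p = 0.00429), -1.88 (adjusted p = 0.00891) without DEN 4 and -1.72 (adjusted p = 0.185) without Untreated 3, 4 and 5. It was called in each of the 11 fits that left out 1 Untreated or DEN library.

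Cyp2c68 (chromosome 19, 39677278 to 39729498, minus strand), in the same cluster as Cyp2c40, was at 59.1, 59, 58.7, 104 and 105 FPKM in Untreated and from 24.6 through 37 to 49.3 in DEN. The groups did not overlap. Its log2 fold change was -1.03 (SE 0.24, adjusted p = 0.0243), and -0.71 (adjusted p = 0.353) without Untreated 3, 4 and 5. Cyp2c37 was the third member whose DEN libraries all lay below all Untreated ones, an order found for 1.33% of all tested genes, against 2.6% for the opposite order, which 0 members showed. Cyp2c37 was at 209 to 452 FPKM in Untreated and 2.33 (DEN 4) to 169.5 in DEN. It was called without DEN 4 (-1.62, adjusted p = 0.0494) and not with it (-2.44, SE 0.69, adjusted p = 0.0618). Without Untreated 3, 4 and 5 limma did not call Cyp2c37, and edgeR put it at -1.49 (edgeR adjusted p = 0.371). Cyp2c67, whose upstream sequence is close to that of Cyp2c40, was at 353 and 277 FPKM in Untreated 1 and 2, at 52.9, 68.9 and 73.5 in Untreated 3 to 5 and at 34.4 to 308 in DEN, an order opposite to that of Cyp2c40 and Cyp2c69.

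Cyp2e1 (chromosome 7, 140343652 to 140354900, plus strand), the pericentral enzyme that oxidises ethanol, paracetamol and nitrosamines, had the highest mean level of all members. It stood at 3929.55, 4078, 2634, 2428 and 2437 FPKM in Untreated 1 to 5, and at 3427, 1684, 554, 45.3, 2029 and 1922 in DEN 1 to 6. DEN 1 lay inside the Untreated range and the other 5 below it, with DEN 4 lowest. The log2 fold change was -1.72 (SE 0.69, adjusted p = 0.205), -0.86 without DEN 4 and -2.13 (adjusted p = 0.382) without Untreated 3, 4 and 5, not called in any of the 3. All 20 carcinogen-treated libraries lay below Untreated 1 and 2, an order found for 1.13% of all tested genes and for no other member, while DEN 1 lay above Untreated 3, 4 and 5.

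Of the 6 tested pericentral markers outside the family, Glul and Tbx3 fell in DEN (-1.71, adjusted p = 0.0200, and -1.10, adjusted p = 0.0488), 5 of the 6 were below 0, and their summed FPKM was 343 to 639 in Untreated and 17.9 (DEN 4) to 359 in DEN. Without Untreated 3, 4 and 5 neither was called, at -1.54 (adjusted p = 0.254) for Glul and -0.86 (adjusted p = 0.401) for Tbx3, and 5 of the 6 were again below 0. Glul makes glutamine in the cells next to the central vein and Tbx3 is a Wnt target there. In DEN 4, where Cyp2e1 was at 45.3 FPKM, Glul was at 8.43. Low marker levels in DEN 4 were not limited to pericentral genes. Its summed periportal markers outside the family were at 749 FPKM, against 1848 to 2499 in Untreated. Whether the lower pericentral marker level plays a part in the level of Cyp2e1 was not tested.

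Cyp2f2 (chromosome 7, 26819334 to 26833085, plus strand), a periportal enzyme that activates naphthalene, ran from 141 to 418 FPKM in Untreated and was at 329, 384, 57.6, 12.4, 408 and 479 in DEN 1 to 6. DEN 3 and DEN 4 lay below all Untreated libraries and the other 4 inside or above their range. Its log2 fold change was -0.71 (adjusted p = 0.662), 0.0078 without DEN 4 and -1.13 (adjusted p = 0.667) without Untreated 3, 4 and 5. Of the 7 periportal markers outside the family, 0 were called. Their summed FPKM was 1848 to 2499 in Untreated and 749 (DEN 4) to 2890 in DEN. Cyp2a5 (chromosome 7, 26534730 to 26542973, plus strand), which oxidises nicotine, coumarin and nitrosamines, was at 632, 208, 627, 353 and 250.1 FPKM in Untreated and from 132 through 275 to 414 in DEN, with overlap (-0.66, adjusted p = 0.350, and -0.62 without Untreated 3, 4 and 5).

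The members known to be induced through CAR varied widely between mice of 1 group. Cyp2b10 (chromosome 7, 25597045 to 25626049, plus strand), the standard CAR target, was at 15.7, 3.48, 25.5, 25.5 and 19.7 FPKM in Untreated and at 25.1, 25.7, 3.9, 0, 52.4 and 154 in DEN. Cyp2c55 (chromosome 19, 38995463 to 39031137, plus strand), an arachidonic acid hydroxylase, was at 2.76 to 16 in Untreated and at 4.44, 18.6, 14.8, 1.45, 61.4 and 167 in DEN. DEN 5 and DEN 6 were the highest DEN libraries for both genes. Cyp2c29 (chromosome 19, 39257849 to 39319157, plus strand), a fatty acid epoxygenase, was at 242 to 692 in Untreated and ran from 1.67 (DEN 4) to 1102 (DEN 6) in DEN. The limma log2 fold changes were 0.12, 1.18 and -1.50, with adjusted p-values of 0.978, 0.611 and 0.55, so the 3 were not called. They were 1.01, 1.23 and -1.79 without Untreated 3, 4 and 5, also not called.

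Cyp2c50 and Cyp2c54, epoxygenases in the same chromosome 19 cluster, were at 152 to 236 and 209 to 341 FPKM in Untreated. In DEN they ran from 1.48 to 217 and from 2.64 to 327, with DEN 4 lowest for both (log2 fold changes -1.84 and -1.72, adjusted p = 0.217 and 0.252, and both -1.93 without Untreated 3, 4 and 5). Over the 6 members of the CAR-inducible list, 0 were called and the median was -1.61, or -1.86 without Untreated 3, 4 and 5. Their summed FPKM was 909 to 1539 in Untreated and 9.57 in DEN 4, where Nr1i3, the gene of CAR itself, was at 2.89 FPKM against 86.3 to 248 in Untreated. Nr1i3 was not called in DEN (-1.53, adjusted p = 0.158). Whether its level plays a part in the level of the CAR-inducible members was not tested. DEN 4 was also the lowest library for Cyp2e1 and Cyp2f2, which are not on that list.

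**Figure D4:**
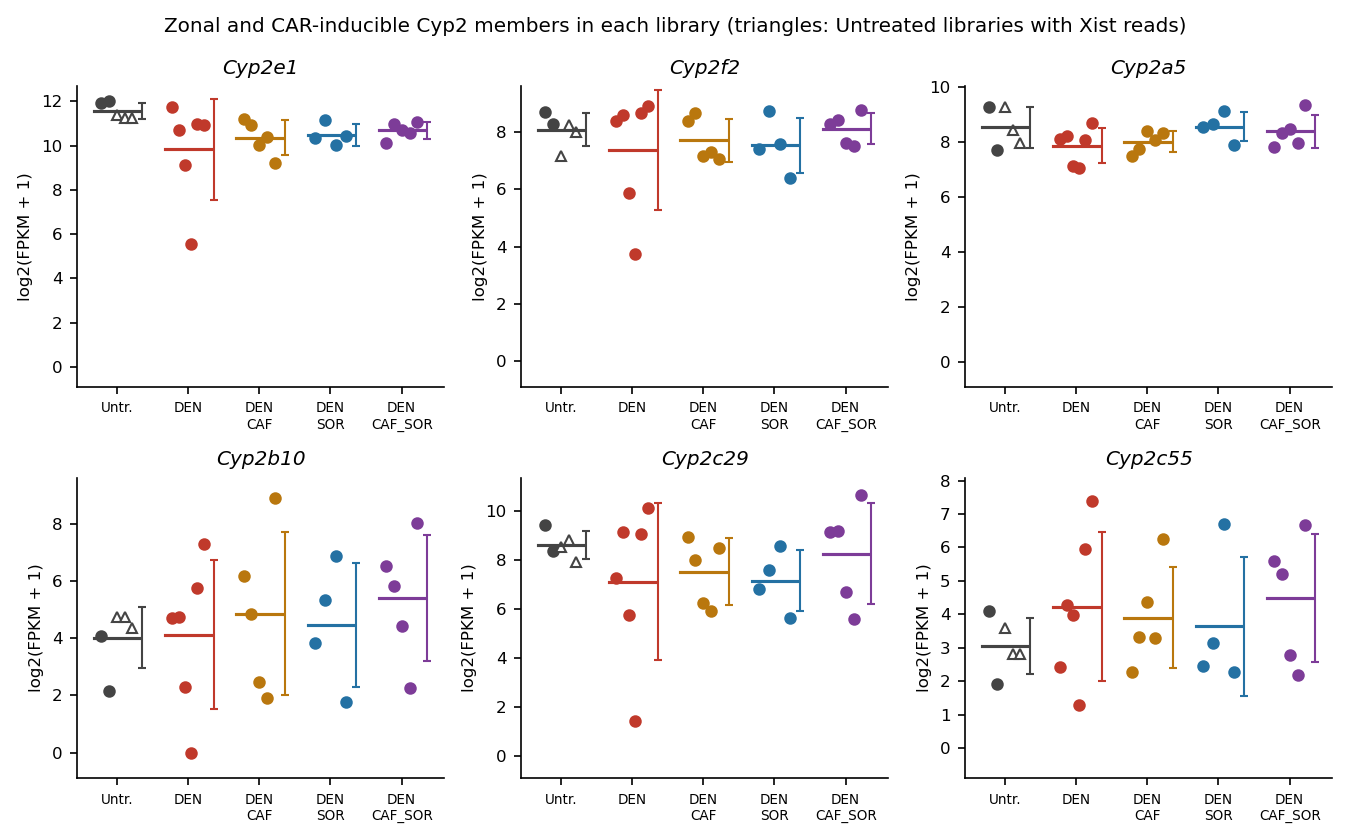
Log2(FPKM + 1) per library by group for the zonal members Cyp2e1, Cyp2f2 and Cyp2a5 and for the inducible members Cyp2b10, Cyp2c29 and Cyp2c55, with triangles for the Untreated libraries that hold Xist reads, a line for the group mean and a bar for the SD. DEN 4 is the lowest point for Cyp2e1 (45.3 FPKM), Cyp2f2 (12.4) and Cyp2c29 (1.67), and Cyp2b10 runs from 0 to 154 FPKM within DEN.

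Other members with known roles were not called by limma. Cyp2c39, a retinoic acid hydroxylase, was at 7.77 and 44.8 FPKM in Untreated 1 and 2, 104, 138 and 106 in Untreated 3 to 5 and 0.53 to 45.5 in DEN (log2 fold change -2.18, adjusted p = 0.135, and -0.66 without Untreated 3, 4 and 5). Cyp2d13 was at 126 to 237 in Untreated and 19.7 to 140.4 in DEN (-1.35, adjusted p = 0.0933, and -1.13 without Untreated 3, 4 and 5). Cyp2j5 (chromosome 4, 96517010 to 96552391, minus strand), an arachidonic acid epoxygenase of liver and kidney, was at 161 to 213 in Untreated and 21.3 to 193 in DEN (-0.94, adjusted p = 0.273, and -0.95 without Untreated 3, 4 and 5). DESeq2 called Cyp2c39 (adjusted p = 0.0370) and Cyp2d13 (adjusted p = 0.0205), both lower, and edgeR did not. Cyp2r1, a vitamin D hydroxylase, ranged from 1.31 to 4.37 FPKM over all 25 libraries. Cyp2u1, a fatty acid hydroxylase, was at 15.1 and 5.44 in Untreated 1 and 2, 1.68, 1.97 and 1.95 in Untreated 3 to 5 and 2.1 to 9.87 in DEN. Cyp2s1, known mainly outside the liver, stayed below 1 FPKM in every library.

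Within the Cyp2d subfamily, the most abundant members Cyp2d10 and Cyp2d26 were at 350.8 to 641 and 337 to 666 FPKM in Untreated and at 219 to 654 and 349.9 to 516 in DEN. Cyp2d22, the mouse gene most often set beside human CYP2D6, was at 54 to 93.6 and 34.6 to 107. The ranges of all of these overlapped. By subfamily, 11 of the 13 tested Cyp2c members were below 0 and 3 fell, with a median of -1.72, while the medians were -0.38 for a, -0.10 for b, -0.15 for d and -0.19 for j, with 0 limma calls in each of these 4. On the recovered reads edgeR and DESeq2 each called Cyp2a22 of subfamily a and Cyp2b13 of subfamily b, and DESeq2 called Cyp2d13 of subfamily d, all lower. The direction turned in subfamilies a and b without Untreated 3, 4 and 5, with medians of 0.66 (1 member up, Cyp2a4) and 1.66 (1 up, Cyp2b9). The medians were then -0.71 for c, with 0 called, -0.39 for d and -0.11 for j.

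The count of called members differed between libraries numbered 3 and 4 and the others. Among libraries numbered 3 and 4 alone, 14 members were called, all lower in DEN (Cyp2a22, Cyp2b13, Cyp2c37, Cyp2c38, Cyp2c40, Cyp2c50, Cyp2c54, Cyp2c68, Cyp2c69, Cyp2d13, Cyp2d40, Cyp2e1, Cyp2g1 and Cyp2j5), with a median of -1.92. Among the other libraries 0 members were called, 5 had an unadjusted p under 0.05, and the median was -0.02. The shares of all tested genes in these fits are not given here, so the counts cannot be read as particular to the family. Cyp2e1 was at -3.98 (adjusted p = 0.0495) in the first set and -0.64 (adjusted p = 0.476) in the second. Cyp2g1 was at -3.14 and -1.59. The first set holds DEN 3 and DEN 4 and compares them with Untreated 3 and 4, both with Xist reads, so carcinogen treatment and Xist status cannot be told apart there.

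Pooling all 20 carcinogen-treated libraries, 5 members fell against Untreated and 0 rose, with 2.06% of all tested genes down, 3.16% up and 5.21% called. The 5 were Cyp2c69 (-3.26, SE 0.82, adjusted p = 0.0212), Cyp2c40 (-2.78, SE 0.73, adjusted p = 0.0253), Cyp2g1 (-1.62, SE 0.32, adjusted p = 0.00492), Cyp2d13 (-1.27, SE 0.35, adjusted p = 0.0339) and Cyp2c68 (-0.86, SE 0.20, adjusted p = 0.0142). Of the 36 members, 15 had an unadjusted p under 0.05 against 20.5% of all genes, and the median was -0.36. Both edgeR and DESeq2 called 10 members, all lower, and without DEN 4 limma called 8, 7 lower and Cyp2d9 higher. The share of all tested genes called in these other fits is not given here, so their counts are not set against it. Over all 20 libraries, 0 members lay wholly below the 5 Untreated ones and 0 wholly above, against 0.361% and 0.675% of all tested genes. This comparison and the last share the Untreated libraries and the DEN libraries.

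Without Untreated 3, 4 and 5, called genes were 0.44% of all tested genes (0.228% up and 0.212% down), and the members called were Cyp2a4 (5.70, adjusted p = 0.00953) and Cyp2b9 (4.42, adjusted p = 0.0168), both higher. All 7 members of the female-biased list were then above 0, with a median of 0.85. With edgeR, 2 members were called there, Cyp2b9 and Cyp2b13, both higher. Cyp2d13, Cyp2c68 and Cyp2g1 were not called without the 3 libraries.

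Genes that serve or control the family gave few calls. Of 15 genes of electron transfer and haem supply, 0 were called in DEN against Untreated and the median was -0.10. Por, the reductase that feeds all CYP2 enzymes, was at -0.72 (adjusted p = 0.509), and at -1.01 (adjusted p = 0.592) without Untreated 3, 4 and 5. Of 27 regulators 0 were called, with 8 above 0 and 19 below and a median of -0.17. Both lists had 0 calls without Untreated 3, 4 and 5 as well, with medians of -0.13 and -0.15. Over all carcinogen-treated libraries 1 regulator fell, Cux2, a female-biased repressor of male-biased genes (-1.92, adjusted p = 0.0439). Cux2 ran from 0.0946 to 18.0 FPKM within Untreated, and without Untreated 3, 4 and 5 it was at -0.60 and not called.

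Markers of other liver cells were measured in the same libraries, and their part in the CYP2 values was not tested. All 5 cholangiocyte markers were above 0 in DEN and 1 rose (Sox9, 0.85, adjusted p = 0.0210), with sums of 6.82 to 13.1 FPKM in Untreated and 16.7 to 86.1 in DEN, without overlap. All 5 were also above 0 without Untreated 3, 4 and 5, and 0 were called there (Sox9 0.80, adjusted p = 0.241). The Kupffer cell, neutrophil, endothelial and stellate cell lists had 0 calls each, and their ranges overlapped between Untreated and DEN. Summed Kupffer cell markers were 54.8 to 117 and 20.02 (DEN 4) to 97.9, and summed neutrophil markers 3.35 to 22.8 and 6.27 to 388, highest in DEN 4. Endothelial markers summed to 22.1 to 48.7 and 18.6 to 40.4, and stellate cell markers to 17.8 to 40.1 and 14.3 to 43.1. The median log2 fold changes of these 2 lists were -0.02 and -0.01, and 0.50 and 0.46 without Untreated 3, 4 and 5. All 5 Kupffer cell markers were below 0 in both fits, with medians of -0.64 and, without the 3 libraries, -0.47. The 5 T and B cell markers summed to at most 4.29 FPKM in Untreated and 1.53 in DEN, and none was high enough to be tested.

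Adding caffeine, sorafenib or both after the carcinogen gave no called CYP2 member in any of the 6 comparisons by limma, edgeR or DESeq2. Called genes were 0.00785% of all tested genes for DEN_CAF against DEN and 0% for DEN_SOR against DEN, DEN_CAF_SOR against DEN, DEN_CAF_SOR against DEN_SOR, DEN_CAF_SOR against DEN_CAF and the interaction of the drugs. Unadjusted limma p-values under 0.05 went to 0 of the 36 members in each, against 2.81%, 6.19%, 2.72%, 3.39%, 2.95% and 3.97% of all genes in that order. With edgeR the number of members at an unadjusted p under 0.05 was 1, 2, 1, 1, 1 and 3, and with DESeq2 1, 3, 1, 1, 1 and 3. Shares of all tested genes under edgeR and DESeq2 are not given here, so these counts are not set against them. With the replicate number as a block, DEN_CAF against DEN gave 0 called members and 0 called genes.

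For caffeine, the members with the smallest p were Cyp2a22 (log2 fold change 1.36, 95% interval -0.57 to 3.29), Cyp2g1 (0.55) and Cyp2d12 (0.37). Cyp2e1 was at 2340.3, 1969.7, 1038, 1360.05 and 602 FPKM in DEN_CAF 1 to 5, inside the DEN range, with a difference of 0.53 (95% interval -0.91 to 1.96). Cyp2b10 was at 71.7, 27.5, 4.56, 2.73 and 483 in DEN_CAF, and DEN_CAF 5 was its highest library of all 25. The median over the members was 0.23 with 29 above 0, and -0.02 with 15 above 0 without DEN 4.

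For sorafenib, a kinase inhibitor used against liver cancer, the members with the smallest p were Cyp2g1 (0.81, 95% interval -0.05 to 1.67), Cyp2c39 (1.57, -0.09 to 3.23) and Cyp2a5 (0.68), with adjusted p-values of 0.838, 0.838 and 0.856. Cyp2g1 was at 8.65, 3.44, 1.92 and 5.5 FPKM in DEN_SOR against 0.189 to 3.95 in DEN, and the ranges overlapped. Cyp2a5 was at 377, 407, 569.5 and 236 in DEN_SOR. Cyp2e1 differed by 0.65 (95% interval -0.88 to 2.18). The median over the members was 0.17, and -0.15 without DEN 4.

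For both drugs against DEN, the members with the smallest p were Cyp2g1 (0.72, 95% interval -0.08 to 1.53), Cyp2c37 (1.19) and Cyp2a5 (0.51). Cyp2g1 was at 2.93, 4.81, 4.56, 4.02 and 3.97 FPKM in DEN_CAF_SOR, and Cyp2c29 reached 1618 in DEN_CAF_SOR 5 against 48 to 585 in the other 4. The median was 0.27, and 0.07 without DEN 4. Against DEN_SOR the smallest p-values went to Cyp2u1 (0.85), Cyp2c69 (-1.66) and Cyp2j8 (0.54), and against DEN_CAF to Cyp2a22 (-1.57), Cyp2u1 (0.49) and Cyp2c50 (0.82). In the interaction they went to Cyp2u1 (1.14), Cyp2a22 (-2.28) and Cyp2c40 (-1.93), each at an adjusted p of 0.992. The first 3 drug comparisons share the DEN libraries.

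Within the number sets the member medians of the drug comparisons with DEN parted. Among libraries numbered 3 and 4 they were 1.02 for caffeine, 1.15 for sorafenib and 0.96 for both, and among the others -0.19, -0.21 and -0.01. The first set holds DEN 3 and DEN 4, the DEN libraries with the lowest CYP2 sums.

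**Figure D5:**
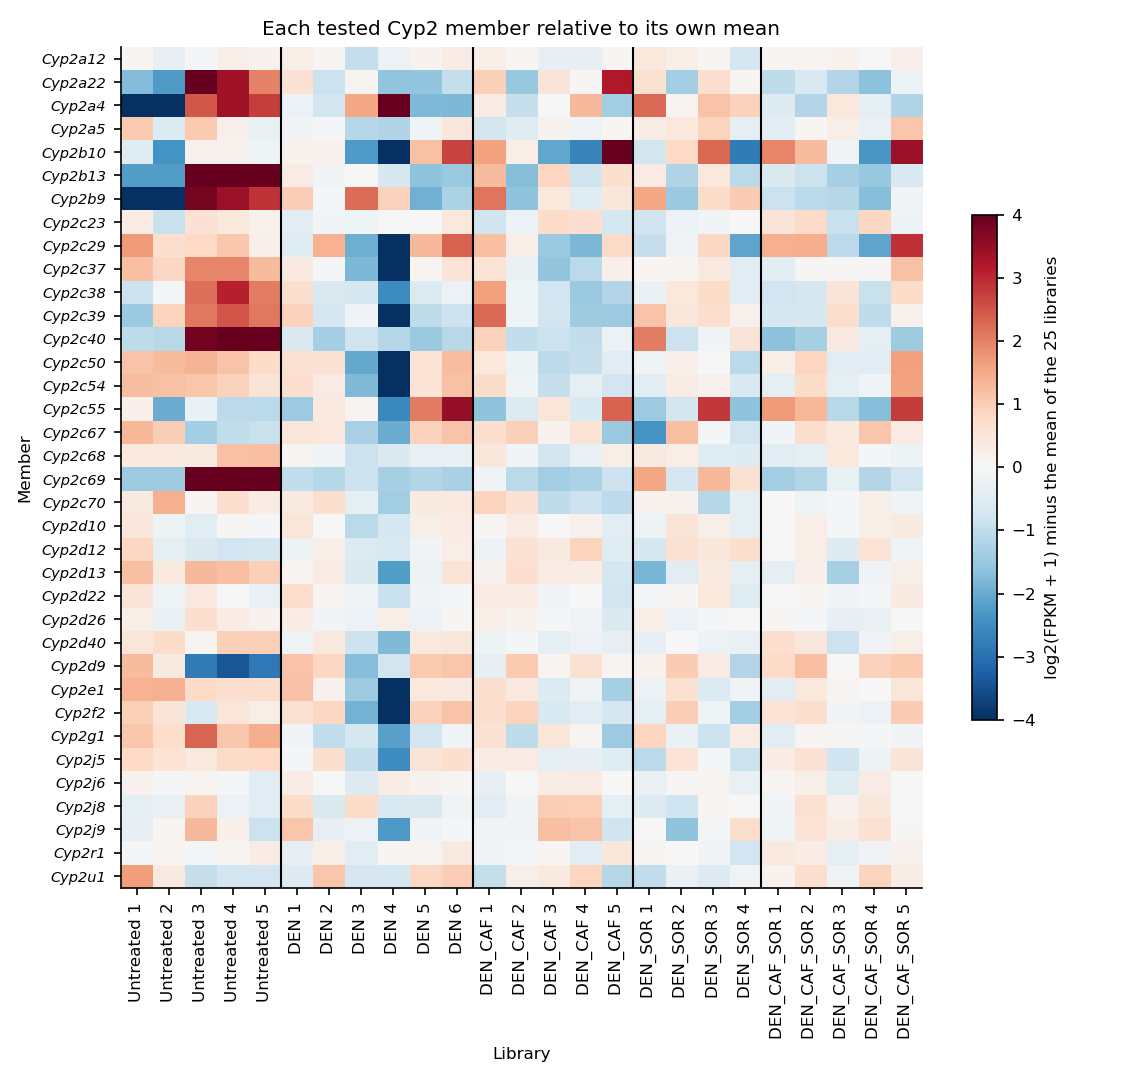
Heat map of log2(FPKM + 1) of the 36 tested CYP2 members (rows) in the 25 libraries (columns, by group), each minus the member's mean over the 25 libraries, on a log2 scale. Untreated 3, 4 and 5 stand apart in the female-biased rows, and the DEN 4 column is the lowest for 18 of the 36 members.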

How the data were processed

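Liver RNA of 25 mice in 5 groups was sequenced, and groups were taken from the sample titles. Reads were aligned with HISAT2 2.0.5 to GRCm39 and counted with featureCounts 1.5.0-p3, as the submitters' processing notes list. Annotation release and strand use: not given in the sources used here. Antisense and overlapping genes are therefore uncertain. Each group has its own deposited table, and although the names say FPKM the values are a signal, reads scaled by a library's size factor: 100% of values were whole multiples of 1 step within 0.01 read. Reads were recovered from these steps, and FPKM was computed here from reads, the gene length the tables list and the library total, which makes the separately normalised tables comparable.

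Genes with an FPKM of at least 1 in at least 4 libraries and present in all 5 tables were tested (12741). The test was limma 3.58.1 (R 4.3.3) on log2(FPKM + 1), 1 coefficient per group in 1 fit of 25 libraries, eBayes with a trend, two-sided, Benjamini-Hochberg adjustment over all tested genes at 0.05. Unless edgeR or DESeq2 is named, adjusted p-values are limma's. The design had assumed FPKM or raw counts; edgeR 4.0.16 and DESeq2 1.42.0 on the recovered reads are given as alternatives. The log2(FPKM + 1) scale understates changes of low genes. Intervals are 95% intervals of the fit. Depth, from 14750278 to 21992613 reads, leaves 0.0339 to 0.126 FPKM as the value of 3 reads in Untreated 1 and 2, depending on gene length, and covers counting error only.

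The members, gene lists, tests and alternatives were chosen with earlier results of these data known. Named genes are the called members of each comparison (with 0 calls, the 3 with the smallest p), the most abundant member of each subfamily, members with a textbook role and genes of the lists. Cyp2c67, Cyp2c38, Cyp2d40 and Cyp2j8 are named for their place in a count or because of their sequence. The replicate numbers paired DEN with DEN_CAF, where each of the 5 same-numbered pairs correlated above 0.1 (0.13 to 0.51). The labels do not say what a number shares. In no other tested comparison of groups did every pair exceed 0.1. Between DEN_CAF and DEN_SOR, which were not compared directly, all 4 pairs did (0.14 to 0.47). The analysis steps were tested on simulated data. Other settings were TMM scaling, non-mitochondrial FPKM, a pseudocount of 0.1, no filter, the replicate number as a block, the library number sets and leaving out libraries.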

Additional observations from a re-analysis of the deposited data

Results flagged for a closer look

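Of 170 sets of values (a member or subfamily sum in 1 group of 4 to 6 libraries), 18 (10.6%) held 1 library set apart. Its gap to the next exceeded the 95% critical value of Dixon's test. The sets are not independent, since the sole gene of a subfamily enters both as a member and as a sum. The 10.6% is therefore not set against a chance rate. Cyp2a4 was at 1273 FPKM in DEN 4, which put the subfamily a sum there at 1573 against 416 to 673 in the other 5. Cyp2b10, the standard CAR target, was at 154 FPKM in DEN 6 and 483 in DEN_CAF 5. Cyp2c55, also inducible, was at 167 in DEN 6, 75.4 in DEN_CAF 5 and 103 in DEN_SOR 3, so DEN 6 and DEN_CAF 5 stood apart for both genes.

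DEN_CAF 1 stood apart for 3 members that were high in the Xist-positive Untreated libraries: Cyp2b9 at 102 FPKM, Cyp2c39 at 116 (7.96 to 20.9 in the other 4) and Cyp2c40 at 9.29 (1.75 to 3.68). It had 9 Xist reads. Cyp2c37 was at 264 in DEN_CAF_SOR 5 against 86.7 to 122 in the others.

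In Untreated 1, the subfamily d sum was 2105 FPKM against 1206 to 1393 in the other 4, and Cyp2u1, the sole gene of subfamily u, was at 15.1 against 1.68 to 5.44. Cyp2s1, the sole gene of subfamily s and below the filter everywhere, was at 0.456 FPKM in Untreated 5 and 0.652 in DEN_CAF_SOR 1.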

How the results depend on the processing

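For DEN against Untreated (4 members called, all lower), the count was 10 with DESeq2 and 7 with edgeR. It was 1 with the compared groups alone, 2 without a filter and 3 with the replicate block. It was 14 among libraries numbered 3 and 4 and 0 among the others. On leaving out 1 library it was 1 to 7, and the 7 without Untreated 1 were 6 lower and 1 higher. Without Untreated 3, 4 and 5 it was 2, all higher, also without DEN 4, and 1 higher with edgeR (the latter fits were added after seeing the data). For all carcinogen groups (5, all lower), it was 10 with DESeq2 or edgeR and 3 without libraries numbered 3 and 4. It was 8 with the number set as covariate, with the replicate block and without DEN 4, each with 7 lower and 1 higher. Without Untreated 3, 4 and 5 it was 2, all higher, also without DEN 4 or with edgeR. On leaving out 1 library it was 1 to 8. Shares of all tested genes are given above only for limma with all libraries and without Untreated 3, 4 and 5. The causes were not tested. Deviations of same-numbered libraries correlated at a median of 0.13 (-0.28 to 0.54, 25 of 46 pairs above 0.1), against -0.03 for other pairs (47 of 203 above 0.1), a hint from the data that a number may mark something shared. Between Untreated and DEN 1 of 5 pairs exceeded 0.1. Outside the 2 comparisons with Untreated, the replicate block changed no count of called members.

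Of the 4 called in DEN against Untreated, Cyp2c40 lost its call on leaving out 8 of 11 libraries, Cyp2c69 9, Cyp2c68 3 (DEN 3, Untreated 4 or Untreated 5) and Cyp2g1 0 (adjusted p = 0.00336 to 0.0183). In the pooled comparison Cyp2c40 and Cyp2c69 lost it without Untreated 3, 4 or 5, Cyp2c68 without Untreated 4 or 5, Cyp2d13 without Untreated 1, 3, 4 or 5, and Cyp2g1 lost it on leaving out 0 of them.

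Directions turned as follows. In DEN against Untreated, without Untreated 3, 4 and 5 under limma, limma without DEN 4 as well, and edgeR, Cyp2c69 was at 0.30, 0.34 and 5.93, Cyp2b9 at 4.62, 4.46 and 9.06, Cyp2b13 at 1.66, 1.68 and 9.46, and Cyp2d9 at -0.54, -0.33 and -0.47. Cyp2b9 was also at 0.0051 with the number set as covariate, 0.94 with a pseudocount of 0.1, 0.19 with the replicate block, 1.45 without libraries numbered 3 and 4 and -1.30 to 0.80 on leaving out 1 library. Cyp2a4 was at -0.10 without DEN 4 and -0.53 to 1.72 over single libraries. Cyp2f2 was at 0.0078 without DEN 4, 0.31 without libraries numbered 3 and 4 and -1.02 to 0.0078 over single libraries.

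In the pooled comparison, the same 3 fits gave Cyp2c40 0.57, 0.57 and 0.90, Cyp2c69 0.85, 0.86 and 7.40, and Cyp2b9 4.42, 4.38 and 8.57. Cyp2b9 was at 0.74 with a pseudocount of 0.1, 1.79 without libraries numbered 3 and 4 and -1.50 to 0.60 over single libraries. Cyp2a4 was at -1.33 with DESeq2, -1.35 with edgeR, -1.76 among libraries numbered 3 and 4 and -0.63 to 1.62 over single libraries. Among drug comparisons, Cyp2u1 was at -0.62 (interaction) and -0.25 (DEN_CAF_SOR against DEN_CAF) in libraries numbered 3 and 4, and Cyp2g1 and Cyp2d12 at -0.13 and -0.11 (DEN_CAF against DEN) without them.

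With 4 to 6 mice a group, intervals such as -0.91 to 1.96 for Cyp2e1 in DEN_CAF against DEN hold changes in both directions, and members below the filter were not tested at this depth.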
